A study of Mus musculus with 17 samples.

Results

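The subject is the transcriptome of ordinary mouse embryos at the 2-cell stage: the 7 control embryos among the 17 single embryos of the series, chosen because their labels begin with the word Control. All were of the inbred strain 129SVE and wild-type, and each was hybridized to an array of its own after amplification of its RNA. Their 3 sires had been injected with saline each day over 6 weeks and were mated naturally to untreated wild-type females. Sire A fathered 1 of these embryos (A-2), sire B fathered 3 (B-1 to B-3) and sire D fathered 3 (D-1 to D-3). The labels also call the same males untreated controls, and here they are taken as saline treated. The other 10 embryos, from males given the inhibitor PJ34, are not compared. Embryos of 1 sire share their father and possibly a litter, so the spread between the 7 is not that of 7 unrelated families.

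A mouse embryo enters the 2-cell stage with RNA that the oocyte stored. During this stage much of that maternal RNA is destroyed and the embryo's own genome begins to be transcribed in its main wave, together with a short-lived burst of genes that are scarcely used elsewhere. Factors of the first lineage choice, between trophectoderm and inner cell mass, come into use later, and the embryo still relies on oocyte stores of ribosomes and mitochondria.

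Each value is a log2 intensity of a probe set (a row of the table) after RMA, the robust multichip average. Rows with exactly 1 gene symbol numbered 21780, for 19935 genes. Intensity depends on the probes as well as on the RNA, so rows are placed by intensity and no transcript is ranked against another. RMA gives the probe intensities of every array the same distribution before they are summarized into rows, so the values are relative within an embryo. A smaller amount of RNA in a whole embryo would therefore not show. Values ran from 2.85 to 13.39, and the medians of the 7 arrays lay between 6.12 and 6.22. The table has no detection call. As a yardstick, the 95th percentile of the means of 1194 rows for olfactory and vomeronasal receptors, which belong to sensory neurons, was taken as the sensory receptor level: 6.20, with a receptor median of 4.41. By this measure 11296 of 21780 rows, 51.9%, lay above it, 1696 rows (7.79%) had a mean over 10 and 171 rows (0.785%) a mean over 12.

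The yardstick is no test of expression, for classes or for single genes. Of 27 genes of striated muscle, 18 lay above it, at a median of only 6.58, among them titin (Ttn, 8.07 ± 0.07, SD, n = 7) and muscle creatine kinase (Ckm, 7.71 ± 0.15). The crystallins of the lens gave 12 of 19 rows above it at a median of 6.52. Both shares, 66.7% and 63.2%, exceed that of all rows, although neither tissue exists at this stage. A level set on 9 lists of other differentiated tissues, added after the data were seen, stood at 7.65 and left 4873 rows (22.4%) above it. Values between about 6 and 8 therefore do not by themselves show that a gene was expressed.

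Over all rows as assigned, the machinery of protein synthesis gave the brightest class. Ribosomal proteins had a median of 11.47 against 6.27 over all rows, and 215 of their 216 rows lay above the receptor level. Rpl41, the smallest protein of the large subunit, stood at 12.85 ± 0.07 and ran from 12.79 in B-1 and B-2 to 12.95 in D-3. Rps12, of the small subunit, ran from 12.68 to 12.77 at its brightest row. In both genes the embryos lay close together. That row of Rps12, like 153 of the 216, lies among rows of another chromosome than its gene's (called a misplaced row here). The row of Rps12 among its own neighbours stood at 11.80 ± 0.08. No median over the rows of the class was taken without misplaced rows. The 23 ribosomal protein genes used for promoters below had brightest rows that were not misplaced. They ran from 6.00 (Rpl12) to 12.85 (Rpl41), with Rps19 (10.23) in the middle. The first rank of the class therefore holds for rows as assigned and was not tested without misplaced rows. Translation factors were above the level in 40 of 40 rows at a median of 10.23. Eif5 was at 12.04 ± 0.11, the cap-binding protein Eif4e at 12.27 ± 0.07 at a misplaced row but 11.20 ± 0.51 and 7.85 ± 1.13 at its other rows, and the dimmest, Pabpn1l, which in the embryo takes part in clearing maternal RNA, at 6.37 ± 0.22. Genes of the nucleolus and ribosome assembly were above it in 38 of 38 rows, at a median of 9.78, led by Wdr43 (12.40 ± 0.08) and nucleophosmin (Npm1, 12.23 ± 0.18), while the dimmest was Rrp1b at 6.69 ± 0.92.

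RNA processing and protein care followed. Of 63 spliceosome rows, 62 lay above the receptor level, at a median of 9.70, with Srsf5 at 12.36 ± 0.09 (a misplaced row, the other at 12.07 ± 0.10) and the core proteins Snrpd3 (12.29 ± 0.21) and Snrpg (12.25 ± 0.06). Heat shock proteins had 24 of 26 rows above it and a median of 10.93. Its brightest rows, of the constitutive chaperone Hspa8 (12.35 ± 0.13) and of Hsp90aa1 (12.08 ± 0.08), were misplaced, and the rows of these genes among their own neighbours stood at 10.56 ± 0.24 and 11.82 ± 0.08. The inducible Hspa1a stood at 7.74 ± 0.31, and the dimmest was the transcription factor Hsf2 at 4.60 ± 0.18. The proteasome had 41 of 45 rows above the level at a median of 9.31. Its brightest member was the core subunit Psma6 (11.88 ± 0.20), whereas the immunoproteasome subunit Psmb8 (5.25 ± 0.11) and the testis subunit Psma8 (4.56 ± 0.07) stood below the level in all 7 embryos. For the 38 rows of RNA decay the count was 34 above, at a median of 8.19. The deadenylase subunits Cnot8 (12.14 ± 0.10) and Cnot1 (12.03 ± 0.28 at a misplaced row, 11.49 ± 0.09 at the other) and their oocyte adaptor Btg4 (11.62 ± 0.22), which recruits the complex to maternal RNA, were the brightest, and Zfp36l1 (5.06 ± 0.18) the dimmest.

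**Figure D1:**
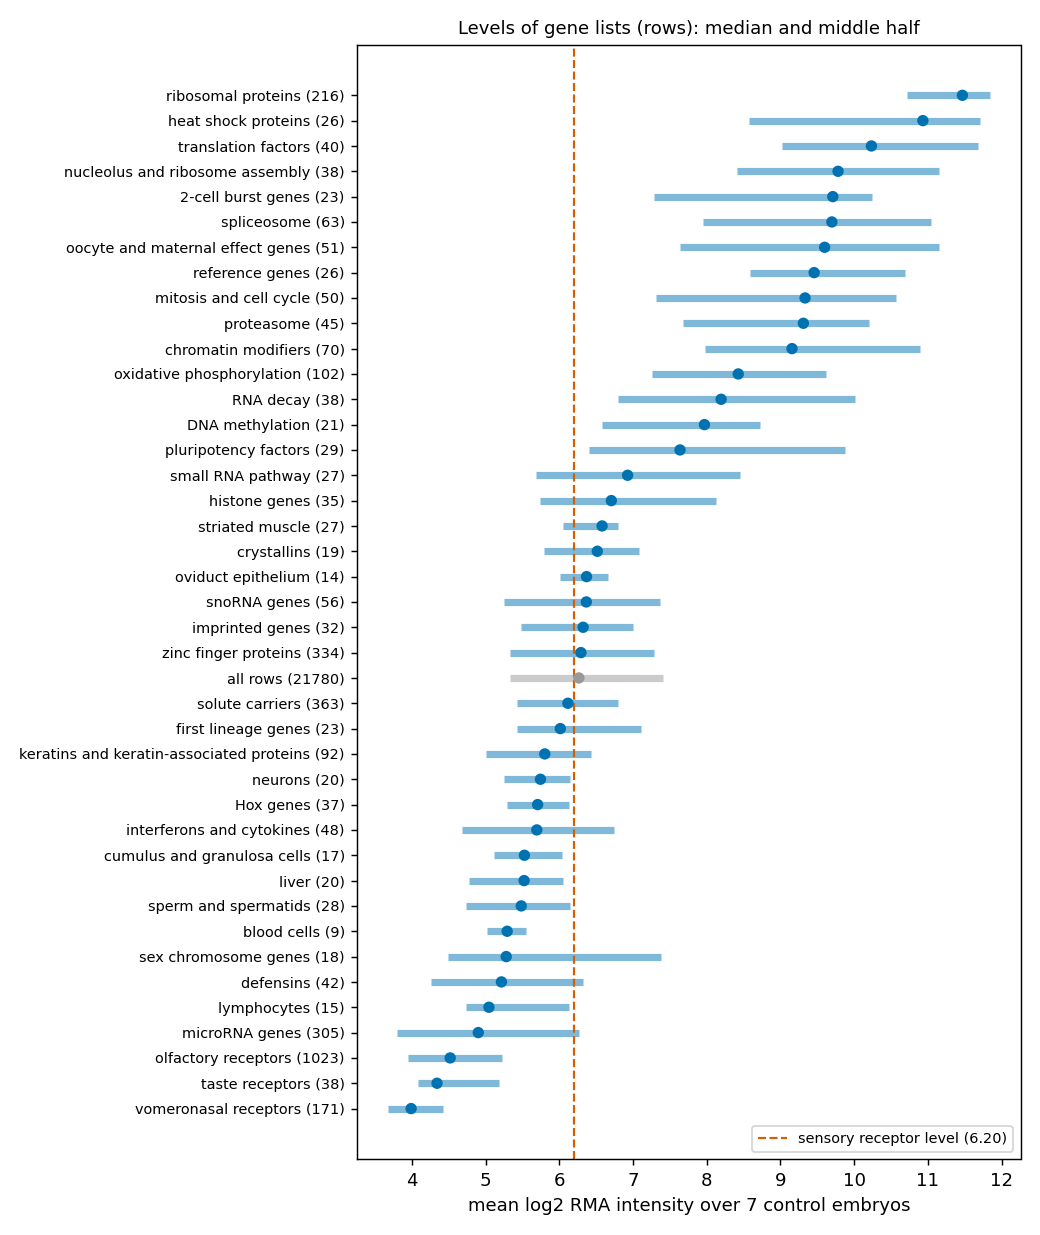
Mean log2 RMA intensity over 7 control embryos for 40 gene lists and all rows. Dots are medians over rows, bars run from the 25th to the 75th percentile of the rows, and the dashed line is the sensory receptor level of 6.20. Over rows as assigned, misplaced rows included, ribosomal proteins (median 11.47) lie farthest to the right and vomeronasal receptors (3.99) farthest to the left.

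Oocyte transcripts gave bright rows. Of 51 rows of oocyte and maternal effect genes, 45 lay above the receptor level, at a median of 9.60. Omt2b, an oocyte transcript, ran from 12.07 in A-2 to 12.62 in B-3. Spin1, a chromatin reader abundant in the egg, was at 12.16 ± 0.10, Oog3 at 12.15 ± 0.14 and Oosp1, an oocyte secreted protein, at 12.15 ± 0.06. The secreted growth factor Bmp15 reached 11.70 ± 0.21, with embryos from 11.46 to 11.95, and its partner Gdf9 10.81 ± 0.31. Members of the subcortical maternal complex were uneven in level: Nlrp5 was at 11.16 ± 0.24, Padi6 at 9.60 ± 0.54, Ooep at 9.05 ± 0.89, Tle6 at 7.56 ± 0.67 and Khdc3 at 7.51 ± 0.54. Of the genes of the zona pellucida, the coat laid down by the growing oocyte, Zp2 was at 10.26 ± 0.19, Zp3 at 9.80 ± 0.33 and Zp1 at 8.63 ± 0.74. The regulators Figla (6.17 ± 0.12) and Sohlh2 (5.42 ± 0.06), which act in early follicles, and the meiotic kinase Mos (5.88 ± 0.21) lay at or below the receptor level.

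Genes of the 2-cell burst were bright as well. Of 46 genes on its list, 22 had a row with 1 symbol, and the remainder, such as the Zscan4 cluster, are not analysed here. Of their 23 rows, 20 lay above the receptor level, at a median of 9.71. Tdpoz2, of a family of speckle-type domain genes, ran at its brighter row from 10.99 in D-1 to 12.19 in B-2. AF067063 stood at 11.42 ± 0.13, and Pramel7, of the preferentially expressed antigen family, at 11.34 ± 0.12. The phosphate transporter Slc34a2 was at 10.93 ± 0.39 and Tcstv3 at 10.60 ± 0.28. Zfp352, a zinc finger gene of this burst, ranged from 8.95 in B-2 to 11.18 in D-2, a wider range than in the genes above. Usp17la, a deubiquitinase gene, was the dimmest row at 4.14 ± 0.39, while its relative Usp17lb stood at 9.86 ± 0.56.

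Factors of pluripotency ranged from bright to dim, at a median of 7.64. Lin28b (8.69), Klf4 (7.71), Fgf4 (7.54) and Klf2 (7.47) lay in between. Klf17, a zinc finger factor of the cleavage stage, stood at 12.38 ± 0.10, from 12.25 in D-2 to 12.53 in B-3. Pou5f1 (Oct4) was at 11.74 ± 0.11, from 11.60 to 11.88, and Sall4 at 10.17 ± 0.12. Those 3 differed little between embryos. The chromatin-binding factor Dppa2 (12.31 ± 0.18 at a misplaced row and 11.41 ± 0.10 at the other), Dppa5a (11.75 ± 0.70) and the nuclear receptor Nr5a2 (10.99 ± 0.22) were likewise bright. Nanog, at 6.49 ± 0.14, lay above the receptor level but below the stricter one, and Esrrb at 5.85 ± 0.20, Nr0b1 at 4.62 ± 0.11 and Sox2 at 4.68 ± 0.28 lay below both. In all, 23 of 29 rows lay above the receptor level, and 13 above the stricter level of 7.65.

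Of the first lineage genes, 11 of 23 rows lay above the receptor level. Yap1, the coactivator of Hippo signalling, was at 10.84 ± 0.20, its DNA-binding partner Tead4 at 8.27 ± 0.47, and Gata4, a factor of primitive endoderm, at 8.82 ± 0.58. Cdx2 (5.85 ± 0.19), Gata3 (5.85 ± 0.17), Eomes (5.19 ± 0.10) and Elf5 (5.46 ± 0.11), which mark trophectoderm and its derivatives, and Sox17 (5.54 ± 0.13), of primitive endoderm, all lay below it. Of the Hox genes 8 of 37 rows (21.6%) lay above the receptor level, and the highest was Hoxb3 at 7.84 ± 0.24.

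**Figure D2:**
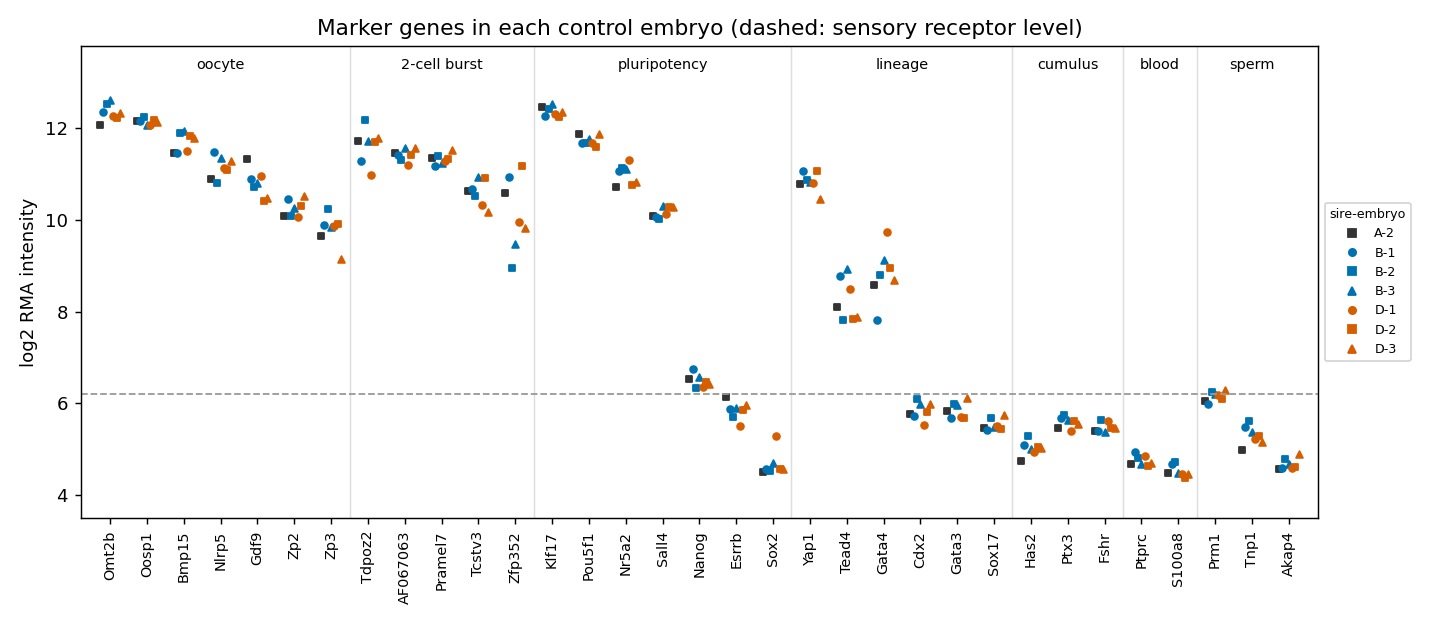
Log2 RMA intensity of marker genes in each of the 7 control embryos (colour for sire, symbol for embryo number). The markers are a selection from the lists, and oviduct genes are not shown. Of those shown, the oocyte, 2-cell burst and upper pluripotency markers lie above the dashed sensory receptor level of 6.20. Sox2, Cdx2 and the markers of cumulus, blood and sperm shown lie near or below it. Some list members not shown go the other way: Usp17la of the burst lies below the level, and Amhr2, Slc4a1, Odf2 and Ldhc lie above it.

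Of the cells that could have come with an embryo, cumulus, blood and sperm had fewer marker rows above the receptor level than the 51.9% of all rows, and oviduct epithelium had more. Of 17 cumulus and granulosa rows, 3 lay above the receptor level: Amhr2 at 7.26 ± 0.20, Btc at 6.27 ± 0.08 and Inhba at 6.23 ± 0.09. The defining cumulus genes Has2 (5.02 ± 0.16), Ptx3 (5.58 ± 0.12), Tnfaip6 (5.11 ± 0.19) and Fshr (5.47 ± 0.11) were below it in every embryo. Blood gave 2 of 9 rows above the level, Slc4a1 at 6.82 ± 0.16 and Alas2, on the line itself, at 6.20 ± 0.15, while the leukocyte antigen Ptprc was at 4.76 ± 0.12. Oviduct epithelium gave 8 of 14 (57.1%, median 6.37), of which 1 passed the stricter level, led by Epcam (7.71 ± 0.36), an adhesion protein that is not restricted to that tissue. Its ciliary gene Foxj1 stood at 6.11 ± 0.11 and Muc1 at 4.98 ± 0.09. The part of oviduct RNA in the other results was not tested. Of 28 sperm and spermatid rows 6 lay above the level. Odf2, which besides the sperm tail serves the centrosome, was at 10.23 ± 0.28, and Ldhc, which oocytes also use, at 7.27 ± 0.57, whereas the defining Prm1 (6.15 ± 0.11), Tnp1 (5.31 ± 0.21), Akap4 (4.68 ± 0.12) and Odf1 (5.51 ± 0.10) were near or below it. Liver and lymphocyte lists had 4 of 20 and 4 of 15 rows above the level, and neurons 4 of 20, of which the tubulin Tubb3 (9.18 ± 1.07) was the brightest.

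Chromatin and cell cycle genes were well represented. Of 70 rows of chromatin modifiers, 65 lay above the receptor level at a median of 9.16, with the Polycomb proteins Suz12 (12.23 ± 0.08) and Bmi1 (11.80 ± 0.06) and the methyltransferase Setd2 (11.87 ± 0.17) in front. For DNA methylation, 18 of 21 rows lay above it: Zfp57, which guards imprints, was at 11.97 ± 0.14, the maintenance methyltransferase Dnmt1 at 10.66 ± 0.14, its de novo relative Dnmt3a at 8.11 ± 0.35 and the oxidase Tet3 at 8.80 ± 0.69 and 8.73 ± 0.65 in its rows. The dimmest was Tet2 at 5.01 ± 0.15. Mitosis and cell cycle genes had 47 of 50 rows above it, at a median of 9.33, led by securin (Pttg1, 12.12 ± 0.09), Pcna (11.51 ± 0.26) and cyclin A2 (Ccna2, 11.50 ± 0.10). The dimmest was Ccnb3 at 4.53 ± 0.20. The D cyclins were low, at 6.42 ± 0.08 (Ccnd1), 6.28 ± 0.19 (Ccnd2) and 7.27 ± 0.23 (Ccnd3).

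The small RNA pathway had 18 of 27 rows above the level. Dicer1, which cuts double-stranded RNA, led at 11.12 ± 0.13, followed by Mael (10.79 ± 0.19) and Drosha (10.09 ± 0.30), and the dimmest row, a misplaced one for Tarbp2, was at 4.49 ± 0.19. Of 305 rows for microRNA genes 81 lay above the level, at a median of 4.90. Imprinted genes had 18 of 32 rows above it (56.25%, against 51.9% of all rows), at a median of 6.32. Only 3 lay above the stricter level, namely Usp29 (9.76 ± 0.30), Igf2r (9.51 ± 0.23) and Mest (8.06 ± 0.83). The dimmest was Ndn at 4.71 ± 0.08. Histone genes matched by name, which include oocyte and testis variants, had 23 of 35 rows above it at a median of 6.71. Their brightest were the linker histone H1f1 (10.75 ± 0.24), H4c4 (9.86 ± 1.04) and the oocyte linker histone H1f8 (9.47 ± 0.83), and their dimmest H2ac8 (3.51 ± 0.10). Their transcripts mostly lack a poly(A) tail, and whether amplification recovered them was not tested.

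The 25 genes with the brightest rows included many whose symbol and place on the array did not match. At the top stood Baiap2l1, an adaptor of membrane protrusions, at 13.27 ± 0.09, from 13.14 in A-2 to 13.39 in B-2, but its row among its own neighbours was at 8.40 ± 0.31. Next came the small nuclear RNA Rn7sk (12.96 ± 0.11), the general transcription factor subunit Gtf2a1 (12.90 ± 0.05), the nucleotide synthesis enzyme Prps1 (12.87 ± 0.27) and the p53 regulator Mdm4 (12.86 ± 0.09). Further down were Calm2 (12.81 ± 0.10), Rnf7 (12.76 ± 0.13), Taf1d (12.54 ± 0.15) and the ubiquitin ligase scaffold Cul3 (12.54 ± 0.06). Row identifiers follow the genome closely, so each row's gene was compared with the genes of the 10 rows on either side. Of 21562 rows with a clear neighbourhood, 643 (2.98%) were assigned to a gene on another chromosome than its neighbours. This share was 0.684% below the receptor level, 418 of 2793 rows with a mean from 8.95 up, and 45.8% (77 of 168) with a mean over 12.

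Of the 25 brightest genes 11 were of this kind, among them Baiap2l1, Rn7sk, Wtap (12.82 ± 0.13), Rps6 (12.69 ± 0.09), Timm17a (12.68 ± 0.08), COX2 (12.58 ± 0.14), Sumo2 (12.54 ± 0.10), Ube2d3 (12.53 ± 0.09) and Tpm3 (12.48 ± 0.05). So were 153 of 216 ribosomal protein rows. Whether such rows read a processed copy elsewhere in the genome, the parent gene or both cannot be told apart without the probe sequences. Without them the brightest rows were those of Rn7sk (its other row, 12.94 ± 0.09), Gtf2a1, Prps1, Mdm4 and Rpl41, and 81 of the 100 brightest genes were still among the first 100. The forkhead factor Foxj3 (12.45 ± 0.12), the cohesin subunit Rad21 (12.35 ± 0.06), Klf17 and Omt2b then entered the first 25.

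Embryos differed little in most rows. The median SD between the 7 embryos was 0.264 over rows above the receptor level and 0.143 over rows below it. Spread peaked at middle levels: with the rows above the level in 4 classes of 2824 by mean, the median SD was 0.165 from 6.20 to 6.65, 0.216 up to 7.33, 0.456 up to 8.95 and 0.298 beyond, and 0.103 among rows with a mean over 12. The 1130 rows with the largest SD, 10% of those above the level, had an SD of at least 0.788, and the 1130 with the smallest, also 10%, an SD of at most 0.109. Of these classes the one from 7.33 to 8.95 held the most variable rows, 536 of 2824, and of the 171 rows over 12 none was variable while 94 were stable. An SD over 1 was found in 601 rows (5.32%). Array noise differs with intensity, and how much of the spread arose in the amplification of 1 embryo's RNA was not tested, since no embryo was measured again.

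**Figure D3:**
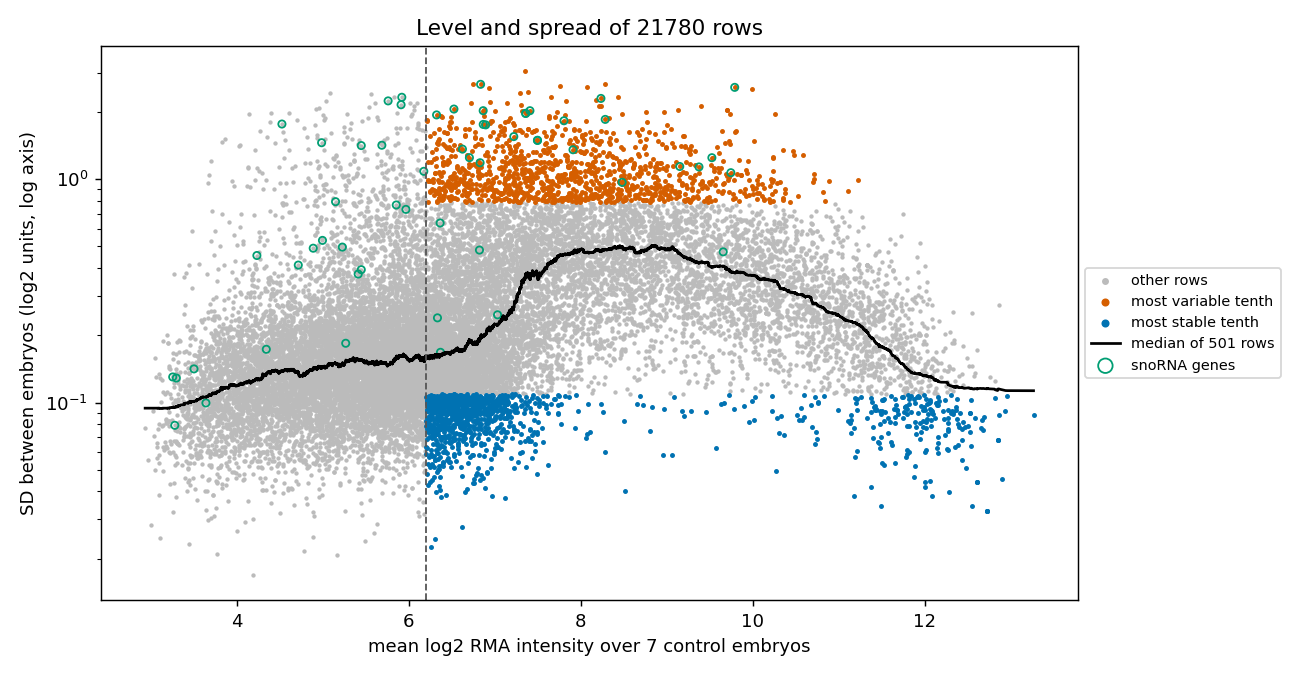
Mean log2 RMA intensity and SD between 7 embryos (log axis) for 21780 rows. Orange and blue points are the 10% most variable and 10% most stable of the rows right of the dashed sensory receptor level, green circles are snoRNA genes, and the black line, a running median, rises to its highest values between about 7.5 and 9 and falls again at the bright end.

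The stable bright genes kept nearly the same value in each embryo. Besides Rps12 (SD 0.03), they included the ubiquitin ligase Cop1 (11.49 ± 0.03, from 11.45 to 11.55), Ccdc117 (11.18 ± 0.04), the RNA-binding proteins Rbm27 (11.38 ± 0.04) and Serbp1 (12.06 ± 0.04), and the cochaperone Ptges3 (12.01 ± 0.04 at a misplaced row, 11.79 ± 0.15 among its own neighbours). Gtf2a1 ran only from 12.85 to 12.99. The Polycomb-like Mbtd1 (11.87 ± 0.05), the cotransporter Slc12a2 (11.89 ± 0.05) and the oocyte gene Accsl (11.53 ± 0.05) also belonged here. At lower levels stood the cold shock protein Ybx1 (8.52 ± 0.04 at 1 of 2 rows), Stt3b (10.27 ± 0.05), Prr29 (7.49 ± 0.05) and Shisa2 (7.36 ± 0.05). Against 10% of all rows above the level, ribosomal proteins had 40 stable rows of 215 (18.6%), chromatin modifiers 9 of 65 and mitosis genes 3 of 47 (6.38%). Of the 40 ribosomal rows 32 were misplaced, and 21 belonged to only Rps12 (13) and Rps6 (8).

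Genes often used as references were not alike in spread. The transferrin receptor Tfrc (11.53 ± 0.11) and Hprt (11.56 ± 0.34) had similar means, with embryos of Hprt further apart. Gpd1l was at 8.51 ± 0.17, Eif1a at 7.42 ± 0.19, actin (Actb) at 9.82 ± 0.48, B2m at 9.27 ± 0.43 and Pgk1 at 8.86 ± 0.53. No row of the 26 in that list was among the variable rows and 1, for Rplp0 (11.58 ± 0.09), among the stable ones, but that row was misplaced and the other row of Rplp0 stood at 8.08 ± 0.42. Gusb, at 5.17 ± 0.09, lay below the receptor level.

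Shares of variable rows are to be read against 10% of all rows above the level. Small nucleolar RNA genes guide the modification of ribosomal RNA and mostly lie in introns of host genes. They had 25 variable rows of 31 above the level, or 80.6%, with a median SD of 1.49. These rows are not all separate measurements: those of Snora30 (7.50 ± 1.49) hold identical values, as do those of Snord118 (7.36 ± 1.97). Of all 21780 rows, 127 were identical to another row. Snord104 was at 4.13 in B-1 and between 9.90 and 11.79 in the other embryos. Snord87 ran from 3.44 in A-2 to 10.35 in D-1, and Snord82 from 3.52 in D-2 to 10.19 in D-1, each in its own order of embryos. Oxidative phosphorylation had 93 of 102 rows above the receptor level at a median of 8.43. After Atp5md its brightest were Cox6a1 (11.55 ± 0.37) and Cox5b (11.25 ± 0.25 among its own neighbours) and its dimmest Cox7b2 (4.38 ± 0.29). The list does not hold COX2 (12.58 ± 0.14 at a misplaced row) or ND3 (12.21 ± 0.17), which were brighter than its members. It had 23 variable rows of 93 (24.7%) and no stable row, against 536 of 2824 rows in the class of level that holds its median. Zinc finger proteins had 26 variable rows of 177 (14.7%), imprinted genes 4 of 18 (22.2%), and the 2-cell burst 5 of 20: Tmem92 (9.22 ± 1.41), Pramel19 (9.69 ± 1.06), Tdpoz3 (7.93 ± 0.98), Ubtfl1 (10.11 ± 0.84) and Zfp352. Of 45 oocyte rows 7 were variable (15.6%), with Oosp2 (6.84 ± 1.51), Gtsf1 (7.92 ± 1.13) and Ddx4 (9.22 ± 1.07) the most so.

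Wide ranges were also found in protein-coding genes with 1 row. Bex1, an X-linked gene of a small adaptor family, was at 4.01 in B-3 and 5.02 in B-2 but between 8.63 and 10.64 in the other 5. 1700013H16Rik split with A-2, B-3 and D-3 between 4.05 and 4.53 and the other 4 embryos between 8.64 and 9.21. Neither split followed the sires. Ndufa1, an X-linked subunit of complex I, was at 4.90, 4.98 and 5.07 in B-2, D-3 and B-3, and reached 10.90 in D-1. The glutathione transferase Gstm5 ranged from 5.08 to 10.06, the testis histone H2bc1 from 5.59 to 10.09, the cell cycle ligase subunit Anapc13 from 5.89 to 11.23 and the ubiquitin ligase Trim32 from 5.75 to 10.03. In 4930550C14Rik 1 embryo, B-2, stood at 11.17 and the other 6 between 5.85 and 6.99. These genes, with 1 row and a gene on the chromosome of their neighbours, were picked after the rows of large genes and snoRNA had been seen to fill the list of largest SD.

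**Figure D4:**
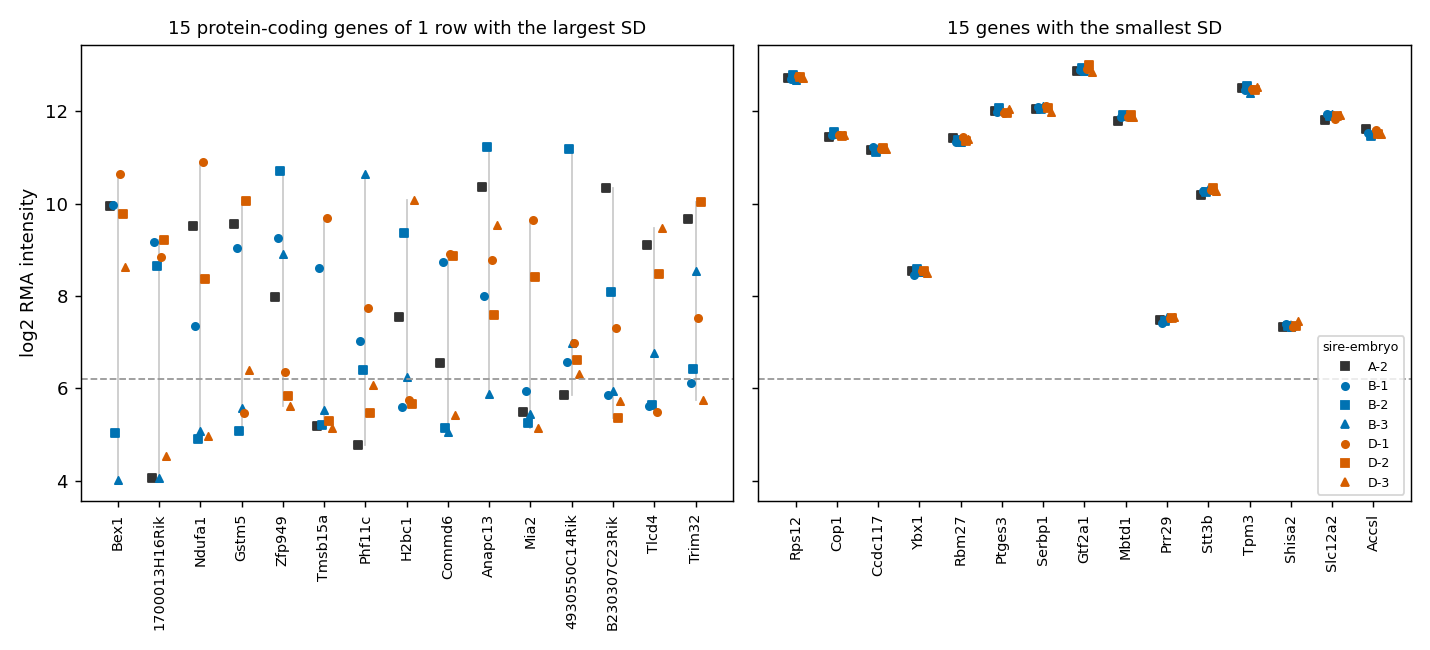
Log2 RMA intensity in each control embryo (colour for sire, symbol for embryo number) for the 15 single-row protein-coding genes of largest SD and the 15 genes of smallest SD among rows with a mean over 7.33. Bex1 spans 4.01 to 10.64, whereas the embryos of Rps12 lie between 12.68 and 12.77, and the dashed line is the sensory receptor level.

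In 259 of the 21780 rows, 1.19%, at least 2 embryos lay below the receptor level and at least 2 lay more than 1 log2 unit above it. The widest of these was 1 of the 14 rows of Cspp1, a centrosome and spindle pole gene: 4.44 in D-3, 4.61 in B-2, 5.04 in D-1, 6.26 in A-2, 8.39 in B-1, 11.15 in D-2 and 11.54 in B-3. Fut11, a fucosyltransferase, was high in B-2 (9.42) and D-1 (7.69) and at most 4.08 in the rest. The phosphatase gene Ptpn3, at 1 of 12 rows, ran from 4.07 in D-3 to 11.04 in D-1. The predicted gene BC031361 ran from 5.15 in B-3 to 11.72 in D-3. Myo9a, an unconventional myosin, at 1 of 13 rows, was at 10.12 in D-2 and 7.38 in B-1 and at most 6.27 in the rest.

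Rows of the same gene could differ in level and in spread. Of the 998 genes with several rows, the brightest and dimmest row differed by a median of 0.94 and by more than 2 in 250 genes (25.1%). Chd7, a chromatin remodeler, had 30 rows with means from 7.96 to 12.33 and SDs from 0.13 to 2.52. At the row of SD 2.52, embryos B-2 (5.97) and D-1 (6.83) were low and the other 5 lay between 10.24 and 11.83. Gas5, the host of several snoRNA genes, had 1 row at 12.24 ± 0.07 and another at 7.76 ± 2.61. Rows above the level were variable in 17.7% for genes with several rows and in 8.52% for genes with 1 row. In 11 genes 1 row was variable and another stable, so spread in such genes belongs to the row and not to the gene.

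**Figure D5:**
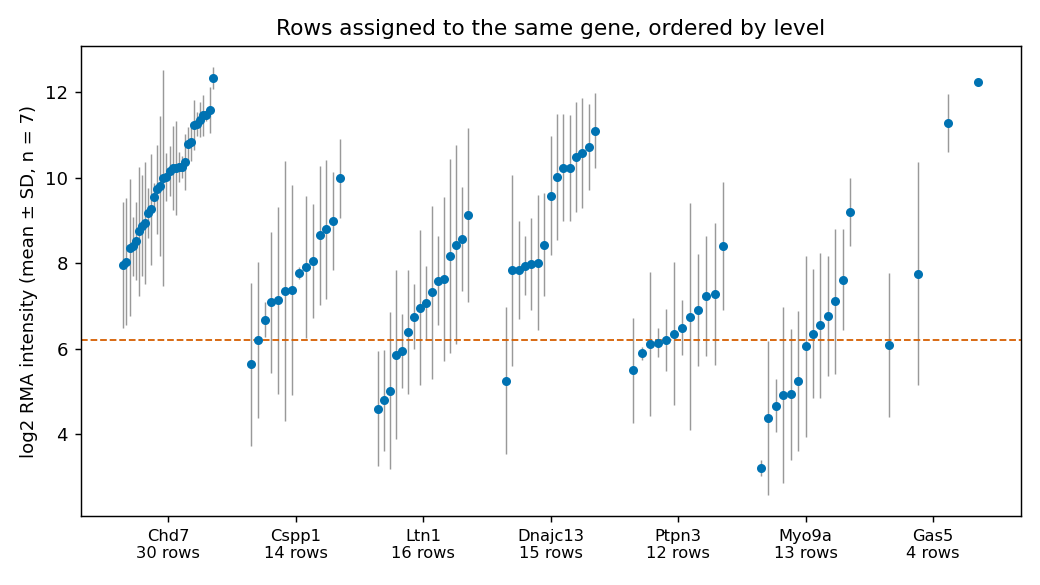
Mean log2 RMA intensity and SD (n = 7 embryos) of each row assigned to Chd7, Cspp1, Ltn1, Dnajc13, Ptpn3, Myo9a and Gas5, ordered by level. The 30 rows of Chd7 span 7.96 to 12.33, the brightest rows of Chd7 and Gas5 have short bars, and the dashed line is the sensory receptor level.

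A row that varied among the embryos of sire B tended to vary among those of sire D. Over rows above the receptor level, the SD within B and the SD within D had a Spearman correlation of 0.493, and of 0.364 after division by the median SD of rows of like level. This is across rows that share arrays and probes and carries no p. Of the 1130 rows with the largest SD within B, 454 (40.2%) were also among the 1130 largest within D, which are 10% of rows above the level. After the same division by level, 433 rows (38.3%) were shared. No single embryo held the extremes: the share of variable rows in which an embryo was the highest ran from 11.9% for B-3 to 16.8% for D-1, and in which it was the lowest from 11.2% for A-2 to 19.7% for B-2. B-2 also had the lowest mean correlation with the others, 0.953, over pairs that ran from 0.950 to 0.959.

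The sires were compared next, each side of B against D being 1 male, so dam, litter or collection cannot be told apart from sire. Embryos of 1 sire were hardly more alike than embryos of different sires: the mean correlation across rows was 0.9563 for 6 pairs within sires and 0.9559 for 15 pairs between them, a difference of 0.00041 (exact permutation test over all 140 assignments of 7 embryos to families of 1, 3 and 3, two-sided, p = 0.671, where the smallest possible is 0.0143). Between sires B and D no row of 21780 passed an adjusted p of 0.1 in limma (0 called, 0%), with 1050 rows at an unadjusted p under 0.05. With the plain linear-model test of the study's methods the counts were 0 and 1111. Both 1050 and 1111 are near the share of rows that an unadjusted p under 0.05 takes in with no difference between sires.

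The row closest to the threshold was assigned to Bloc1s2, a subunit of a complex for lysosome-related organelles, although its neighbours lie on another chromosome. Its 3 embryos of B lay at 10.32, 10.37 and 10.39 and its 3 of D at 8.61, 8.61 and 8.96, a difference of 1.63 ± 0.12 (SE, limma, adjusted p = 0.300), with A-2 between at 9.21. The groups did not overlap. Without rows of that kind the lowest adjusted p in limma was 0.912. Next in that direction were the proteasome chaperone Psmd10 (difference 2.93), Chn1 (0.73), the zinc finger gene Zfp949 (3.68) and Snx2 (1.31), each with an adjusted p of 0.912 in limma. In the other direction Micos10, of the mitochondrial cristae (difference -0.79), the dehydrogenase Dld (-2.14), the oocyte F-box gene Fbxw15 (-1.48), the dynein regulator Ndel1 (-0.79) and Fam76b (-1.07) had the same adjusted p. In each of these the 3 embryos of 1 sire lay beyond the 3 of the other, and these were picked for the smallest p. Without D-2, 3 rows passed at an adjusted p of 0.0835 (limma): Bloc1s2, Dld and Psmg4, a proteasome assembly factor at 6.09 in D-2 but 9.09 and 9.34 in D-1 and D-3.

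Few rows of sex-linked genes separated the embryos. Eif2s3y, a Y-linked translation factor expressed from early stages, stood at 6.66 in A-2 and 7.41 in B-3 and between 3.60 and 4.38 in the other 5. Xist, which silences an X chromosome in females, ran only from 4.41 in A-2 to 5.52 in D-1, all below the receptor level. The Y-linked Kdm5d (5.22 ± 0.17), Uty (4.48 ± 0.22) and Zfy1 (4.53 ± 0.08) were low throughout, and Sry stood at 7.19 ± 0.17 without separating embryos. Of 739 X-linked genes 256 (34.6%) had a row above the level, against 44.3% to 60.7% for the 19 autosomes.

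Promoter sequence was set beside level for the 15351 genes that had a window in RefSeq (assembly GRCm38.p6, 250 bases before to 50 after the start, first listed start) and a brightest row with no neighbour conflict. Windows were found for 15561 of 19935 genes, with chromosome 18 left out. The median number of CG dinucleotides rose from 7 in genes below the receptor level to 17, 19, 22 and 25 in the same 4 classes of level above it, and the share with GGGCGG, the core of an Sp1 site, from 35.2% to 54.6%, 63.4%, 65.7% and 69.2% (49.7% over all). TATAAA was in 17.6% of windows below the level and in 8.78%, 7.43%, 6.06% and 6.29% above it (12.2% over all). Genes below the level include the receptors that set it, and without 963 olfactory and vomeronasal receptor windows the values below were a median of 9 CG, GGGCGG in 40.4% and TATAAA in 14.1%, a comparison added after the data were seen. CCAAT varied less, from 35.4% to 40.1% (38.2% over all). Each motif was searched on both strands.

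Genes of the oocyte and of the 2-cell burst departed from this. With a median of 1 CG and no GGGCGG in 13 windows, the 2-cell burst lay near the 863 olfactory receptor genes (median 1 CG, GGGCGG in 1.04%), and 3 of its 13 windows (23.1%) held TATAAA and 3 GGATTA. Oocyte genes had a median of 5 CG in 38 windows, with GGGCGG in 36.8%. Ribosomal proteins, with 23 windows, had 18. GGATTA, the core recognised by OTX and OBOX homeodomain proteins, was in 15 of 65 windows (23.1%) of genes with a mean over 12, against 3.67% of 354 genes between 11 and 12, 5.64% of 585 between 10 and 11 and 6.43% over all, a count that rests on few genes and does not rise steadily with level.

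Stretches of 100 bases are shown for 6 genes, with the motif (on either strand) in capitals, because they display the contrast between CG-rich and CG-poor promoters of bright genes. Suz12 (chr11:79993006-79993105, plus strand, GGGCGG) stands for the CG-rich class and has 3 matches. Oog3 (chr4:144162652-144162751, minus strand, TATAAA) has its match 29 bases before the start and 1 CG in its window. Cul3 (chr1:80340841-80340940, minus strand), Hmgb2 (chr8:57511743-57511842, plus strand), Usp16 (chr16:87454735-87454834, plus strand) and Zfp352 (chr4:90218712-90218811, plus strand) carry GGATTA or its complement TAATCC, and Zfp352 has 9 matches in a repeated unit before its start, 3 of them in the stretch shown. The stretches of Suz12, Oog3 and Hmgb2 end at the base before the start, that of Zfp352 ends 9 bases before it, and those of Cul3 and Usp16 run from 250 to 151 bases before it. A match is a description of the letters and not evidence of binding.
Suz12: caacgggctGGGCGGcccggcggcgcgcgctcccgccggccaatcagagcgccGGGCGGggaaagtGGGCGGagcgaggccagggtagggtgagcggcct
Oog3: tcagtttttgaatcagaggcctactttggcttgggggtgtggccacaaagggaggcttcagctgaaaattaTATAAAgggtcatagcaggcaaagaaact
Cul3: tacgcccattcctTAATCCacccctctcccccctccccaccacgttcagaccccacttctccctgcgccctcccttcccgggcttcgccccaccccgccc
Hmgb2: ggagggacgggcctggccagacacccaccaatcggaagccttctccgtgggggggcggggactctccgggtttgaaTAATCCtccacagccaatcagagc
Usp16: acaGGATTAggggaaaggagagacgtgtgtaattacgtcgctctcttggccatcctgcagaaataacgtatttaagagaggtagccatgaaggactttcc
Zfp352: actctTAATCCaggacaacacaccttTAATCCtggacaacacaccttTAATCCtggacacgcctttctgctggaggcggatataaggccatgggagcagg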

How the data were processed

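RNA of single 2-cell embryos was amplified with a whole-transcriptome kit and hybridized to mouse gene arrays, 1 embryo to an array. The authors processed the intensity files with Partek and RMA (background correction, quantile normalization over all 17 arrays, summarization), and the deposited values are log2 intensities. For software versions, the probe set build and row filters: not given in the sources used here. Of 28815 rows, 21780 had 1 gene symbol in the platform annotation, and 21689 of these were matched to current genes by gene ID. A further 1605 rows had several symbols and 5430 none. The number of arrays limits the precision, and the arrays record no depth.

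Means and SDs were taken over 7 embryos. Named genes were the 25 brightest, the 15 of largest and the 15 of smallest SD (with a mean over 7.33), the 10 widest rows with embryos on both sides of the receptor level, the brightest and dimmest members of the gene lists, and the 5 of lowest p between sires in each direction. Further list members, such as the D cyclins, Cdx2 or Psmb8, were chosen after their values were seen. Gene lists, members and rules were chosen with earlier results of these data known. Sires were compared with limma 3.58.1 (R 4.3.3) over all 21780 rows and Benjamini-Hochberg adjustment, at the study's threshold of 0.1, and likeness with an exact permutation test. The limma step was tested on simulated data with planted changes. The share it recovered is not given here, so 0 calls do not show that the sires were alike. Embryo numbers gave no pairing. Nothing says that embryos came from separate litters, so p-values measure the spread between these embryos. Alternatives changed the receptor level, the measure of spread, the rows used and the embryos left out.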

Additional observations from a re-analysis of the deposited data

Results flagged for a closer look

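Single embryos stood apart from the other 6, by a gap above the 95% critical value of Dixon's test, in 22 of 271 values tested (8.12%): 3 of 41 list means and 19 of 230 rows. Chance alone gives about 1 in 20, the rows were partly chosen for their spread, and no explanation was tested. Among list means, the proteasome was highest in A-2 (9.03), first lineage genes were lowest in A-2 (6.30) and liver genes were highest in B-1 (5.65). The last rests on Apoa2. Without it, B-1 was at 5.43, the others lay between 5.29 and 5.38, and the gap no longer passed. Leaving it out was a choice made after seeing the data. A-2 also had the lowest mean of olfactory receptors (4.55), Hox genes (5.68), sperm genes (5.62) and all rows (6.58), but the highest of the spliceosome (9.76). Its low value was therefore not particular to first lineage genes.

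Among bright rows, the lowest embryo stood apart in Prps1 (12.28 in B-2), Foxj3 (12.19 in A-2), Rps21 (12.11 in B-1) and Mbtd1 (11.78 in A-2). The same held for the oocyte genes Npm2 (10.77 in B-2), Zar1l (9.63 in D-3), Tcl1 (9.54 in A-2) and Ooep (7.07 in D-1), and for the 2-cell gene Pramel19 (7.46 in B-2). Further low embryos were found in Ppia (8.41 in B-1, at 1 row), Klf2 (6.95 in B-3), the dimmer row of Ddx3x (6.67 in B-2), Snord104 (4.13 in B-1) and Snord82 (3.52 in D-2). One high embryo stood apart in 4930550C14Rik (11.17 in B-2), Tbx3 (7.89 in D-1), Nlrp2 (7.53 in D-3), Obox6 (6.33 in D-2, at 1 row) and Sox2 (5.30 in D-1, still below the receptor level).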

How the results depend on the processing

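Of 74 alternatives to 6 results, 61 left the result on its side of the threshold or within its tolerance. Some of the 61 could not have come out otherwise. Centring the arrays cannot change the count of rows above the level, and the fit to embryos of B and D alone repeats the main fit. The likeness with an embryo left out was given no test. The tolerance for counts was wide: 69 of the 100 brightest genes, with a gene's rows averaged, counted as unchanged. Rows above the receptor level numbered 7592 to 13371 under other percentiles of the receptors, but 4873 with a level set on other differentiated tissues, an alternative chosen after seeing the data. Of the 1130 most variable rows, 704 were shared with the median absolute deviation and 676 with the SD relative to rows of like level. The median SD of 0.264 became 0.251 within sires B and D and 0.180 over all rows, and 0.254 to 0.260 with an embryo left out. Between sires B and D, leaving out an embryo gave 0 to 3 calls, with 3 only without D-2, at a lowest adjusted p of 0.0835 (limma). With a replicate block no row was called, at a lowest adjusted p of 0.870. Deviations of same-numbered embryos correlated at 0.06, -0.01 and -0.01, so the numbers pair nothing. Probes cannot be inspected, dim rows have no detection call, and amplification noise cannot be told apart from differences between embryos.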

Other observations

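Rows outside the named set were also bright. Of 1605 rows with several symbols, 924 (57.6%) lay above the receptor level and 113 had a mean over 12, with the highest at 13.65. Of 5430 rows with no symbol, 2133 (39.3%) lay above it and 52 had a mean over 12, with the highest at 13.38. By gene biotype, 280 of 766 rows for long noncoding RNA (36.6%) lay above the level, against 10788 of 20337 for protein-coding genes (53.0%).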
